A study of Mus musculus with 2 samples.

Results

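The regions described here were 8101 windows of 1000 bp on the 19 mouse autosomes that were dense in CpG dinucleotides and not fully methylated in the control liver. A window was taken when both libraries together listed at least 60 CpG cytosines in it, counting each strand, when at least 20 of those cytosines had 10 or more reads in both libraries, and when their mean methylation in control liver was under 80%. The 8101 windows were 8101 of 124884 autosomal windows that held at least 3 cytosines of that depth, and of 679934 windows with any listed cytosine. They held 538777 of the 1603296 cytosines that could be compared. The windows were thus chosen by the listed density, the depth and the control level, and not by the difference between the libraries.

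DNA came from the livers of 12-week-old CD-1 mice, an outbred stock, kept on standard chow. The control group was untreated and the fasted group had gone 12 hr without food, and the series title puts the question as the effect of an overnight fast on methylation across the liver genome. Reduced representation bisulfite sequencing was used, in which DNA is cut at CpG-containing restriction sites and an unmethylated cytosine is read as thymine. There was 1 library in each group, called control liver and fasted liver below, and the number of mice behind a library is not in the labels. Every level below is that of 1 library with no replicate spread, and each Fisher's exact test on reads compares the 2 libraries, not the conditions. The control library held 49253627 reads over cytosines, with a median of 8 at a listed cytosine, and the fasted library held 51276705, with a median of 9. Whole liver mixes hepatocytes with endothelial, stellate and immune cells, so a change within cells and a change in the mix of cells cannot be told apart.

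Most CpG dinucleotides of a mammalian genome are methylated on both strands. CpG islands are the exception: they are stretches rich in G and C in which CpG is not depleted, they often span the start of a gene, and they are usually free of methylation whether or not the gene is active. Islands that do carry methylation in normal tissue include the control regions of imprinted genes, where only 1 parental copy is methylated, and the starts of genes used only in germ cells.

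The sequences of 8 gene starts inside the windows show the range from an unmethylated start to a methylated one. Each is the 250 bases before the annotated start, from RefSeq on GRCm38.p6, the same assembly as the mm10 build of the libraries, written from 5′ to 3′ on the strand of the gene with CpG dinucleotides in capitals. Hnrnpa0, which encodes an RNA-binding protein, starts in the window with the most listed cytosines (chr13:58128557-58128806, minus strand). Prkcz, an atypical protein kinase C, has 1 start in an unmethylated window (chr4:155361429-155361678, minus strand) and another in a window of intermediate methylation (chr4:155345790-155346039, minus strand). Igf2r, the imprinted receptor that clears insulin-like growth factor 2 (chr17:12769707-12769956, minus strand), and Gnas, the imprinted locus of the stimulatory G protein alpha subunit (chr2:174284070-174284319, plus strand), stand for imprinted genes. Ddx4, the germ cell RNA helicase also called Vasa (chr13:112652311-112652560, minus strand), stands for germline genes, and Rsph3b, a radial spoke protein of cilia (chr17:6948357-6948606, minus strand), and a second start of Tmem267 (chr13:119488223-119488472, plus strand), a transmembrane protein gene, lie in windows that differed between the libraries.
Hnrnpa0: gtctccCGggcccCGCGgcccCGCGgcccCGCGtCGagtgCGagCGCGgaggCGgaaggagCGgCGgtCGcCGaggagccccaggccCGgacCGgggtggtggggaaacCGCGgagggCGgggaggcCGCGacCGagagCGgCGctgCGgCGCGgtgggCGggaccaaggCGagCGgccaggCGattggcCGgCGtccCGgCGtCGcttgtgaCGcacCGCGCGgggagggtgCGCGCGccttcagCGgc
Prkcz, unmethylated start: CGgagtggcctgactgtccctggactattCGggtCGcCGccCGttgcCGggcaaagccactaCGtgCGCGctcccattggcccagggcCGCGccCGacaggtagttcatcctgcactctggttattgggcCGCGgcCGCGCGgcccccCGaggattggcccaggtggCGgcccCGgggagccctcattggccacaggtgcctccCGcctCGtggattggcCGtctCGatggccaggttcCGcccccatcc
Prkcz, intermediate start: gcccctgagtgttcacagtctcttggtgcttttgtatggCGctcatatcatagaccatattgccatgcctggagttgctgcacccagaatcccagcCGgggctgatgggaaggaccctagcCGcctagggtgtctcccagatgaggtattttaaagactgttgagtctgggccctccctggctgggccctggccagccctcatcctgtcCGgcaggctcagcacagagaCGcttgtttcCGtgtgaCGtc
Igf2r: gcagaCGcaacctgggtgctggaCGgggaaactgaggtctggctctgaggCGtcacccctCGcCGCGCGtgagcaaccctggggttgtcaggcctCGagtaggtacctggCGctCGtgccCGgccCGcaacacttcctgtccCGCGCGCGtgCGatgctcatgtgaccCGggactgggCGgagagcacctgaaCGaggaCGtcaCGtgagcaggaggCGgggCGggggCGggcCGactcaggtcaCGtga
Gnas: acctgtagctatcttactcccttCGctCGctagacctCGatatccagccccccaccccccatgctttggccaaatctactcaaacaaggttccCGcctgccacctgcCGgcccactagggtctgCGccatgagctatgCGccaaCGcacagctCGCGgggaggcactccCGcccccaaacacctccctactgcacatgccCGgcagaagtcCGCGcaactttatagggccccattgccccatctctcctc
Ddx4: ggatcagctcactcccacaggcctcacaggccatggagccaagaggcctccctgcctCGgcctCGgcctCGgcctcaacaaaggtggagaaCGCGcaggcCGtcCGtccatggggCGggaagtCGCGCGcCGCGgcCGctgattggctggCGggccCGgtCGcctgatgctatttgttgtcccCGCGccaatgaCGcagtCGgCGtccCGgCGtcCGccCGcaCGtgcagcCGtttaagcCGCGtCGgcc
Rsph3b: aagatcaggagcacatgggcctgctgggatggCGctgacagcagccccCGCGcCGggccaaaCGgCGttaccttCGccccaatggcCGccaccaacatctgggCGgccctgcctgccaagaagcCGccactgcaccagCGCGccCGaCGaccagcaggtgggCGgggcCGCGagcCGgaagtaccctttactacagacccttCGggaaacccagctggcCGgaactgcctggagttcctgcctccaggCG
Tmem267: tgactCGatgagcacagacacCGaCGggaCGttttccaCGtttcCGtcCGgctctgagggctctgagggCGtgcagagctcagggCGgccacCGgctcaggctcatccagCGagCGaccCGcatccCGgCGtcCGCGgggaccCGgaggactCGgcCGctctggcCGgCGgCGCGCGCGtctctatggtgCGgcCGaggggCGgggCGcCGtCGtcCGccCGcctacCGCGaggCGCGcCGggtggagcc

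Over these printed stretches the mean cytosine level at Hnrnpa0, with 46 CpG dinucleotides, was 1.90% in control liver and 0.564% in fasted liver over 29 cytosines read. The unmethylated Prkcz start stood at 0.386% and 0.623%, and the other Prkcz start, with 7 CpG dinucleotides, at 50.9% and 53.5%. So 2 starts of 1 gene differed far more from each other than either did between the libraries. Igf2r stood at 28.0% in control liver and 36.3% in fasted liver, and all 16 cytosines read there were higher in fasted liver. Gnas stood at 23.8% and 39.7%, with 12 of 14 cytosines higher, and Ddx4 at 78.7% and 68.6%, with 22 of 34 lower. These 3 stretches hold 27, 14 and 31 CpG dinucleotides, where the unmethylated Prkcz start holds 25. At Rsph3b the level was 1.90% in control liver and 24.9% in fasted liver, with all 8 cytosines higher, and at the Tmem267 start it was 51.6% and 70.6%, with all 52 cytosines higher. The stretches were picked with values known and were not tested apart from their windows.

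As the control level helped to choose the windows, it is given as a description. The median window level was 0.762% in control liver, with quartiles of 0.425% and 2.05%, and 0.828% in fasted liver. The means were 2.43% in both. In the control library 7789 windows, or 96.1%, were below 10%, another 161 were at 10 to 20% and 151 at 20 to 80%. In the fasted library 7804 were below 10% and 153 at 20 to 80%, and 7761 windows were below 10% in both. No methylated read was seen in 54 windows in control liver and in 69 in fasted liver, and 2 windows had none in either. A count of 0 there allowed levels of up to 0.152% to 1.09% in control liver and 0.168% to 1.01% in fasted liver, by 3 reads of the window's total. Reads at CpG cytosines of the mitochondrial genome, taken as a background for incomplete conversion, were 0.937% methylated in control liver (exact 95% interval 0.862 to 1.02%) and 0.916% in fasted liver (0.841 to 0.996%). The summed reads of the windows below 10% were 1.29% and 1.35% methylated, and the median window lay below that background in both libraries.

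**Figure D1:**
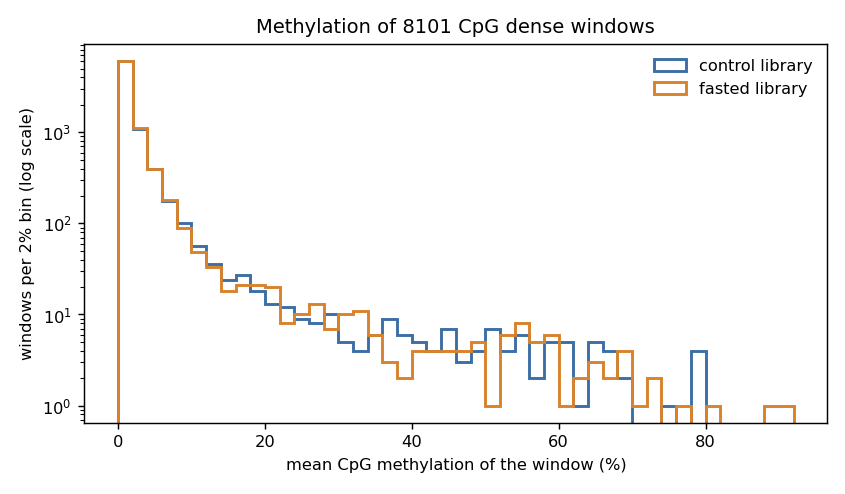
Number of CpG dense windows (log scale) in each 2% bin of mean methylation, in control liver (blue) and the fasted library (orange), 1 library each. Both outlines fall from the first bin, near 0%, to a thin tail, and 7789 control and 7804 fasted windows lie below 10%.

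At the limits of the choice, closest below 80% in control liver were the windows of Ddx4 at 79.3%, Fam110a at 79.8% and Zbtb45 at 79.9957%, and closest above it those of Acnat1 at 81.7%, Plekhh3 at 82.6% and Rps6ka4 at 82.9%. The 174 windows with exactly 60 listed cytosines averaged 4.72% in control liver and 4.65% in fasted liver, and the 209 windows with 59, left out, averaged 3.51% and 3.76%.

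The dense windows were mostly gene starts. Leaving out chromosome 18, whose starts were not analysed here, 4422 windows or 56.4% held an annotated start of transcription, against 10.04% of all windows tested. A further 12.96% held another gene end, 27.6% lay inside a gene and 3.08% between genes, where the shares of all windows tested were 6.12%, 53.1% and 30.8%. Exons and introns were not analysed here. The share with a start fell from 64.9% of the 4739 windows below 1% in control liver to 56.4%, 42.5%, 32.2% and 19.6% in the classes of 1 to 2%, 2 to 5%, 5 to 10% and 10 to 20%. It was 19.2% among the 151 windows at 20 to 80%, of which 98 lay inside a gene. The median level was 0.630% in windows with a start and 1.49% in windows inside a gene in control liver, and 0.700% and 1.46% in fasted liver. The 5 windows with the most listed cytosines all lay in genes: Hnrnpa0 (255 cytosines, 0.665% in control and 0.377% in fasted liver), Fignl2 (252, 67.5% and 73.0%), Yaf2 (241, 0.507% and 0.392%), Unc45b, a myosin chaperone (236, 2.68% and 2.85%), and Mark1, a microtubule affinity kinase (236, 0.982% and 1.49%). All but Fignl2 were low, and none was called as differing between the libraries, where 0.358% of all dense windows were.

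A start inside these windows came with island-like sequence. The 5664 RefSeq promoters, from 250 bases before to 50 after the start, that begin in the windows had a median of 67.7% G and C, 29 CpG dinucleotides and an observed to expected CpG ratio of 0.883. All 31396 promoters of the table had medians of 53%, 7 and 0.389. Motifs were searched by their letters on both strands. CCGG, the site cut by MspI, was in 95.7% of the promoters in dense windows and 53.5% of all promoters, and TCGA, the site cut by TaqαI, in 33.5% and 22.1%. The assay can read only sequence near such sites, so their excess is built into the choice. GGGCGG, the GC box, was in 79.3% against 36.0%, TTCCGG, an ETS core, in 28.3% against 15.1%, and CACGTG, an E-box, in 10.4% against 7.14%. CCAAT was in 32.0% against 37.3%, and TATAAA, bound by the TATA-binding protein, in 4.13% against 13.6%. Motifs holding CpG were thus more frequent in the dense windows, and the other 2 were less frequent. The choice by CpG density favours motifs holding CpG, and no promoters matched for that density were compared. The 32 promoters in windows at 20 to 80% had a median of 65.2% G and C and 23.5 CpG dinucleotides.

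Methylation rose with distance from the dense windows in both libraries. Adjacent windows formed 6883 runs, of which 5770 were single windows, 1021 held 2 windows, 81 held 3, 10 held 4 and 1 held 6. The mean level was 2.43% inside the runs in both libraries. It was 12.4% in control liver and 12.1% in fasted liver 1 kb outside, 46.7% and 46.4% at 2 kb, 53.3% and 53.0% at 3 kb and 59.6% and 59.2% at 5 kb. At 1 kb the median was 2.30% in control liver and 2.27% in fasted liver, and 74.6% of windows were below 10% in control liver. The windows compared fell from 6188 at 1 kb to 1616 at 2 kb and 1207 at 5 kb, so the distances do not follow the same loci. Among the runs of 4 windows, those of Ptma (prothymosin alpha), Zswim6, Phf21b, Arid2 (a subunit of a SWI/SNF complex), Smad7 (an inhibitor of TGF-beta signalling) and Smarca2 (a SWI/SNF ATPase) stayed at or below 1.62% in every window of the control library and at or below 2.46% in fasted liver. The run at Fat4, a giant cadherin, was uneven, from 0.961% to 19.98% in control liver and 0.803% to 18.4% in fasted liver.

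**Figure D2:**
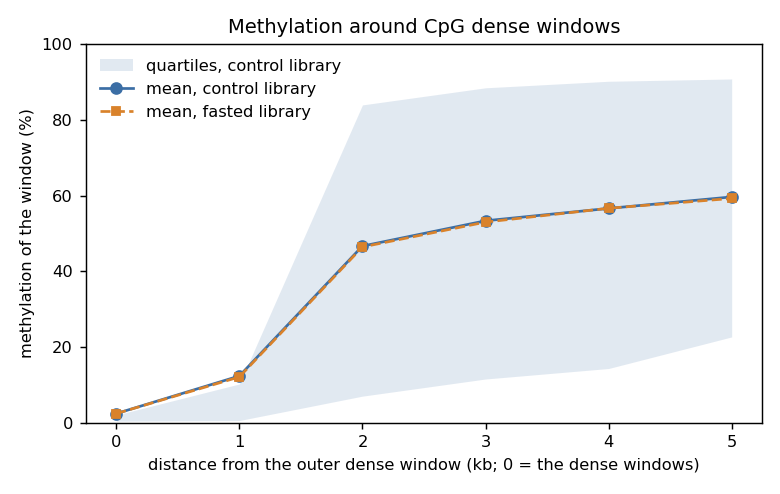
Mean methylation of windows against their distance in kb from the outer dense window of a run, in control liver (blue circles) and the fasted library (orange squares), with the quartiles of control windows shaded. The libraries lie on each other, rising from 2.43% at distance 0 to 59.6% and 59.2% at 5 kb. The number of windows falls from 8101 at distance 0 to 6188 at 1 kb and 1207 at 5 kb.

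The only run of 6 windows was the ribosomal DNA copy at chr17:39843001-39849000, by the gene Rn18s-rs5. Its windows stood at 15.4% to 23.2% in control liver and 16.5% to 26.5% in fasted liver, and each of the 6 was higher in fasted liver, by 1.09 to 5.53 points. They were read 1060 to 2024 times per cytosine in control liver, where the median of dense windows was 24.8 reads. Ribosomal DNA is present in many copies in the genome. None reached 10 points. These windows were singled out after their values were seen.

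Averaged over all dense windows by mean cytosine level, the libraries differed by less than the counting error. The mean difference, fasted minus control, was -0.00287 percentage points with a counting error of 0.00977. With levels from summed reads the mean difference was positive and larger than that error, as given further below. The median was 0.0182 points, and 4184 windows were higher and 3913 lower in fasted liver. The 2 libraries lay less than 1 point apart in 6770 windows, or 83.6%, and less than 5 points apart in 8006, or 98.8%. The scatter was wider in windows of higher control level. Its standard deviation was 0.576 points in windows below 1%, where the median counting error was 0.657. It was 0.736 points against 0.750 at 1 to 2%, 1.09 against 0.877 at 2 to 5%, 2.03 against 1.14 at 5 to 10%, and 3.70 against 1.47 at 10 to 20%. It was 8.33 against 2.40 at 40 to 60% and 10.6 against 2.50 at 60 to 80%. From 2% upward the windows therefore spread more between the libraries than the median counting error. In windows of low level that error is raised, as it takes a smoothed level at each cytosine. Below 2% it therefore cannot show whether the spread exceeded counting. For comparison, the plus and minus cytosine of 1 CpG differed on average by 12.4 points in control liver and 11.8 in fasted liver in windows at 20 to 80%. The same strand differed between the libraries by 12.8 points on the plus and 12.6 on the minus strand.

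Single windows that differed were few. A window was called when the two-sided Fisher's exact test on its summed reads had a Benjamini-Hochberg adjusted p under 0.05 over all 124884 windows and its mean cytosine level differed by at least 10 points. The test alone passed in 423 dense windows, 258 higher and 165 lower in fasted liver, but 394 of them differed by less than 10 points. Of the 8101 windows 29 were called, 15 higher and 14 lower, which is 0.358% against 2% of all windows tested. By direction, 1.06% of all windows were called higher and 0.942% lower. The control level sets how far a window can fall and is shared by the rule and the difference, so the classes are given apart. Below 10% 4 of 7789 dense windows were called (background 0.308%), all higher, as no window there could fall by 10 points. At 10 to 20% 3 of 161 were called (background 2.72%), and at 20 to 80% 22 of 151, or 14.6% (background 4.58%). Of all windows at 20 to 80% with at least 20 cytosines of sufficient depth, 15.4% were called (111 of 723, the dense ones included). By place, 5 of the 4422 windows with a start and 19 of the 2165 inside a gene were called, beside 117 of 12116 and 1294 of 64049 among all windows tested. Among 6188 neighbouring windows outside the runs 63 were called, or 1.02%, and among 62 equally dense windows at 80% or more none was, against 2% of all windows tested.

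**Figure D3:**
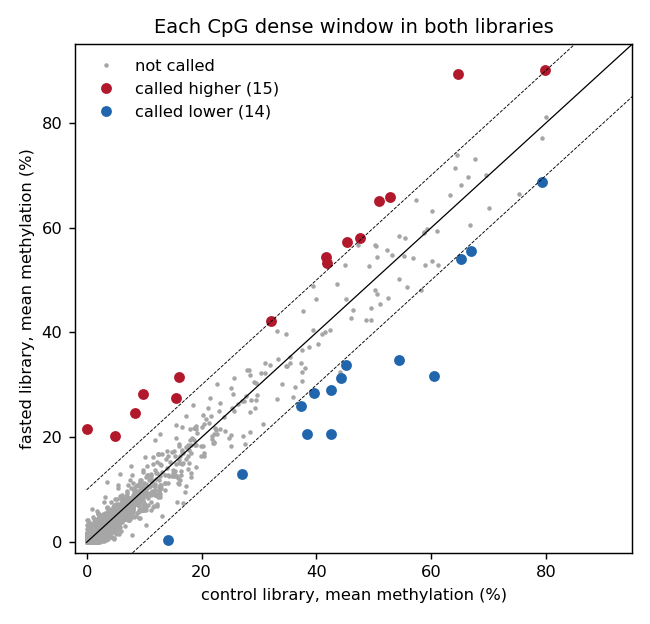
Mean methylation of each of the 8101 windows in fasted liver against the control library, with the diagonal solid and 10 points to either side dashed. The 15 windows called higher (red) and the 14 called lower (blue) lie outside the dashed lines, 22 of the 29 of them at 20 to 80% in control liver.

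Of the 14 windows called lower, 12 lay inside genes and 13 were at 20 to 80% in control liver. The largest fall was in Niban3, a member of the Niban family, at chr8:71602001-71603000, where the control library had 60.4% and the fasted library 31.8%. Of its 89 cytosines 84 were lower, and the difference was -28.6 points with a counting error of 1.54 (adjusted p = 2.83e-57, Fisher's exact test). Both sides of the window and both strands fell by about the same amount: the plus strand went from 57.1% to 28.2% and the minus strand from 64.1% to 35.8%. In Crocc, the gene of the ciliary rootlet protein rootletin (chr4:141025001-141026000), the level was 42.6% in control liver and 20.7% in fasted liver (20 of 25 cytosines lower). In Tbxa2r, the thromboxane A2 receptor gene (chr10:81332001-81333000), it was 54.3% and 34.7% (25 of 30 lower). In Esr1, which encodes estrogen receptor alpha (chr10:4712001-4713000, 1843 bp from a start), it was 38.4% and 20.7% (19 of 22 lower). These 3 differences were -21.8, -19.6 and -17.7 points, with counting errors of 2.61, 3.0 and 2.65.

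The window of Slc25a4 differed from the other lower windows by its low control level. Slc25a4 encodes the mitochondrial ADP/ATP carrier of heart and muscle, and the window, chr8:46210001-46211000, ends 62 bp from its annotated start. The control library had 187 methylated of 1214 reads there and the fasted library 7 of 1120, with mean cytosine levels of 14.1% and 0.481% (difference -13.6 points, counting error 1.15, adjusted p = 6.83e-43, Fisher's exact test). None of its 51 cytosines was higher and 33 were lower. The 28 cytosines that fell by 10 points or more lay together, between 334 and 481 bp from the window's centre, at 16.7% to 35.3% in control liver and 0% to 7.14% in fasted liver. The other 23 averaged 1.76% and 0.311%. The next window toward higher coordinates went from 2.77% to 0.338%, a change in the same direction that was not called.

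The remaining lower windows differed by -14.1 to -10.7 points. They included Shisa8 (27.1% and 13.04%), Tradd, an adaptor of the tumour necrosis factor receptor (42.5% and 28.9%), and Evpl, which encodes envoplakin of the epidermal envelope (44.3% and 31.3%). The predicted gene Gm11620 stood at 67.0% and 55.5%, and Gnas at chr2:174285001-174286000 at 37.4% and 26.0%. Outside the 10 largest falls were Cuedc1 (45.1% and 33.8%), the zinc finger gene Zfp316 (39.5% and 28.4%), Sfi1, a centrosome protein gene (65.1% and 54.1%), and Ddx4 (79.3% and 68.6%). The Sfi1 window was read 761 times per cytosine in control liver and 568 times in fasted liver, far above the median of 24.8, and the part of this depth in its difference was not tested.

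The 4 windows below 10% in control liver that were called all rose to between 20.2% and 28.2%. The largest such rise was in a window 675 bp from Tob2, a member of the antiproliferative TOB family, at chr15:81859001-81860000. None of 920 reads was methylated in control liver, which allows up to 0.326%, and 213 of 1041 were in fasted liver. The mean cytosine level was 21.5% there (difference 21.5 points, counting error 1.35, adjusted p = 3.6e-60, Fisher's exact test). Of its 41 cytosines 24 were higher and none lower, and the rise lay mostly on 1 side: below the window's centre the fasted level was 1.68%, and above it 44.5%. In Gpi1, which encodes glucose-6-phosphate isomerase of glycolysis and gluconeogenesis (chr7:34230001-34231000, holding a start), the level was 8.34% in control liver and 24.7% in fasted liver (16.3 points, counting error 1.29, adjusted p = 2.12e-44, Fisher's exact test). The 14 cytosines that rose by 10 points or more lay between -389 and -303 bp from the centre, from 16.1% to 52.8% on average, and the other 18 stood at 2.33% and 2.74%. So the rises in these 2 windows were blocks among the cytosines read, not a shift of all of them. In Gpi1 no cytosine above the window's centre had sufficient depth.

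Rsph3b and Tns1 rose more evenly. In Rsph3b (chr17:6948001-6949000), the level was 9.82% in control liver and 28.2% in fasted liver, and 35 of 39 cytosines were higher (adjusted p = 7.66e-23, Fisher's exact test). In Tns1, the gene of the focal adhesion protein tensin 1 (chr1:74098001-74099000, 2387 bp from a start), it was 4.94% and 20.2%, and 36 of 39 cytosines were higher (adjusted p = 3.1e-19, Fisher's exact test). Tns1 has exactly 60 listed cytosines, the minimum of the choice.

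**Figure D4:**
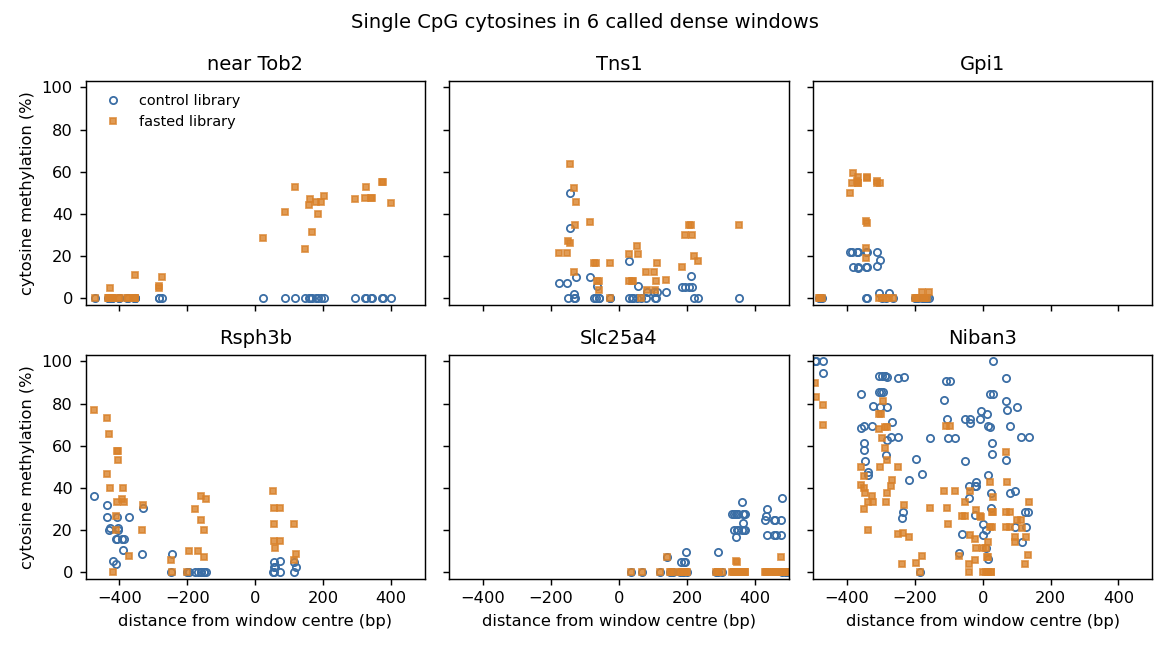
Methylation of each CpG cytosine with 10 or more reads against its distance in bp from the window's centre, in control liver (blue circles) and the fasted library (orange squares), for 6 called windows. The rise near Tob2 lies mostly on 1 side of the centre. In Gpi1 and Slc25a4 only 1 side of the centre had such cytosines, and the change lies in a block there. The changes in Tns1, Rsph3b and Niban3 are spread over the part that was read.

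Of the windows called higher from a higher level, that of Elfn2, a leucine-rich repeat protein gene that here overlaps 1700041B01Rik (chr15:78673001-78674000), went from 64.6% in control liver to 89.2% in fasted liver. It rose by 24.6 points (counting error 2.86, adjusted p = 3.41e-12, Fisher's exact test), in 21 of 23 cytosines. The Tmem267 window, shared with 3110070M22Rik (chr13:119488001-119489000), stood at 50.8% and 64.99%, with 94 of 110 cytosines higher. It was read 69.3 times per cytosine in control liver and 102 times in fasted liver, where the median of dense windows was 24.8 in both, and the part of this depth in the difference was not tested. A window 66920 bp from Gm40843 (chr12:19176001-19177000) stood at 16.1% and 31.6%, and one in Lims2, a focal adhesion gene on chromosome 18, at 15.5% and 27.6%. Gata4, a transcription factor of heart and endoderm, stood at 41.6% and 54.5% in a window inside the gene, 169184 bp from the nearest start used. A window shared by Abi3 and Phospho1 stood at 52.9% and 65.9%. The other 5 windows called higher, in Myorg, Usp49, Prob1, Fam110a and Grb10, rose by 10.04 to 11.9 points.

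Within the called windows, both strands moved with the call in 28 of the 29 windows, the exception being Abi3 and Phospho1, and by at least 10 points on both strands in 18. In the 20 windows with 3 or more cytosines on each side of the centre, both sides moved with the call in 19, Usp49 being the exception, and by at least 10 points on both sides in 9. As the windows were called on the same difference, these counts are a description. Of 28 tested windows directly beside a called one, 19 moved in the same direction, 13 of them by at least 5 points, and 3 moved by at least 5 points against it. In the direction of the call 3 were called and none in the opposite one, against 2% of all windows tested. The 3 called neighbours lay beside Evpl (83.9% and 73.4%), Gm11620 (58.9% and 29.3%) and Abi3 (41.0% and 61.9%). Neighbouring cytosines are read on the same molecules, and how overlapping read mates were counted is not given in the sources used here, so the test was repeated with all read counts halved. The call was kept in 20 of the 29 windows (background 0.28%). With summed reads divided by their number of cytosines, which treats a window as 1 site of average depth, none was called (background 0.0032%). The same 12 windows were called with a minimum of 5 or 20 reads, with summed reads, with strands merged and with halved counts: those of Niban3, Crocc, Esr1, Slc25a4, Evpl, Sfi1, Elfn2, Tmem267, Tob2, Rsph3b, Gpi1 and Tns1. With the most deeply read cytosines left out, the Sfi1 window could not be tested and 28 windows were called.

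Single cytosines changed rarely. At an adjusted p under 0.05 and 25 points or more, 43 of the 538777 cytosines were called by Fisher's exact test, 28 higher and 15 lower, in 30 windows. This was 0.00798% against 0.082% of all cytosines tested, of which 0.0448% were called higher and 0.0372% lower. Among cytosines with a mean level of at least 10% the shares were 0.192% in the dense windows and 0.175% overall. The largest rises were at single cytosines in Fzd8, a Wnt receptor (0 of 16 reads in control liver, which allows up to 18.8%, and 12 of 18 in fasted liver), Gal3st3 (10 of 26 and 22 of 22) and Gm40847 (0 of 23, allowing up to 13.04%, and 12 of 20). The largest falls were in Niban3 (12 of 13 and 4 of 22), Agap3 (16 of 18 and 4 of 20) and Gja4, the gap junction gene of connexin 37 (22 of 32 and 0 of 28, allowing up to 10.7%). Of these, only the Niban3 cytosine lay in a called window. The windows with most called cytosines were those near Tob2, with 6, and of Niban3, with 4.

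Windows of intermediate methylation were of different kinds. Of the 151 windows at 20 to 80% in control liver, 33 were evenly intermediate, with at least 80% of their cytosines themselves between 20 and 80% in both libraries. Another 28 were mixed, with under 50% of cytosines in that range in both, and 90 were neither. The evenly intermediate windows had a median of 49.5% in control liver and 53.2% in fasted liver, from 32.0% to 65.1% and from 33.2% to 63.1%, and 27 of the 33 were at 40 to 60% in both libraries. Of the 90 windows of neither kind, 9 were. As the kinds were set by the levels of the same cytosines, this contrast follows in part from their definition. The evenly intermediate windows lay inside a gene in 23 of 33 cases and held a start in 8. Among them were the windows of Nnat, an imprinted proteolipid gene (53.1% and 54.9%), the second Prkcz start (52.2% and 55.8%), Boll, a germ cell RNA-binding protein (48.6% and 42.3%), Pnma1 (50.4% and 56.4%), Fut11, a fucosyltransferase (50.1% and 56.7%), and Nfix, a nuclear factor I gene (50.5% and 47.3%). Tbx3, a T-box developmental factor, stood at 58.8% and 59.2%, and Ece1, which encodes endothelin-converting enzyme, at 45.9% and 42.8%. Adjacent windows of Prob1 stood at 47.6% and 49.1% in control liver and 58.1% and 52.6% in fasted liver. Of the 33, 4 were called higher and 1 lower, beside 15.4% (111 of 723) of windows at 20 to 80% with at least 20 cytosines of sufficient depth. None of the 28 mixed windows was called. The genes named in this group were picked after their values were seen.

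Windows at imprinted genes ranged from 0.0874% to 53.1% in control liver. The imprinted list of 44 genes had 10 dense windows at a gene end, and none was called (background 2%). Those at 20 to 80% were Zrsr1, which lies inside Commd1 (25.1% in control liver, 29.5% in fasted liver), Igf2r (23.1% and 25%), Nnat (53.1% and 54.9%) and Gnas at chr2:174284001-174285000 (32.0% and 33.7%). Peg12 stood at 12.4% and 9.12%. The windows at the starts of Grb10 (3.26% and 2.97%), Inpp5f (0.480% and 0.542%) and Rasgrf1 (3.60% and 2.03%), another Gnas start at chr2:174330001-174331000 (1.27% and 1.09%) and one at Herc3 (0.0874% and 1.07%) were low in both libraries. So the same locus, Gnas, held a start of intermediate level and one that was unmethylated. The Igf2r window changed with the read minimum. It differed by 1.93 points as chosen, but by 10.8 points and called with a minimum of 5 reads, and by 10.9 points with strands merged.

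A further 13 dense windows inside genes of the imprinted list, added after their values were seen, showed 2 calls, both at 20 to 80% in control liver, where 22 of 151 dense windows were called. Inside Grb10, an adaptor of growth factor receptors, a window at chr11:12026001-12027000 went from 32.1% in control liver to 42.1% in fasted liver (10.04 points, counting error 2.13, 41 of 45 cytosines higher). In Gnas, the window beside the start of intermediate level went from 37.4% to 26.0% (-11.4 points, counting error 2.29, 35 of 45 cytosines lower). It did not keep its call with counts halved, with a minimum of 20 reads or with summed reads, and Grb10 lost its call with counts halved and with summed reads. The other 4 added Gnas windows stood at 30.4% to 54.4% in control liver and 32.3% to 50.2% in fasted liver. Igf2 was low in both of its windows (4.68% and 4.60% in control liver, 4.37% and 4.31% in fasted liver), as were Dlk1 (2.37% and 0.430%) and Kcnq1 (2.23% and 2.38%), while H13 stood at 20.3% and 22.6% and the windows of Cdkn1c, an inhibitor of cyclin-dependent kinases, at 20.4% and 21.1% in control liver and 17.0% and 25.5% in fasted liver.

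**Figure D5:**
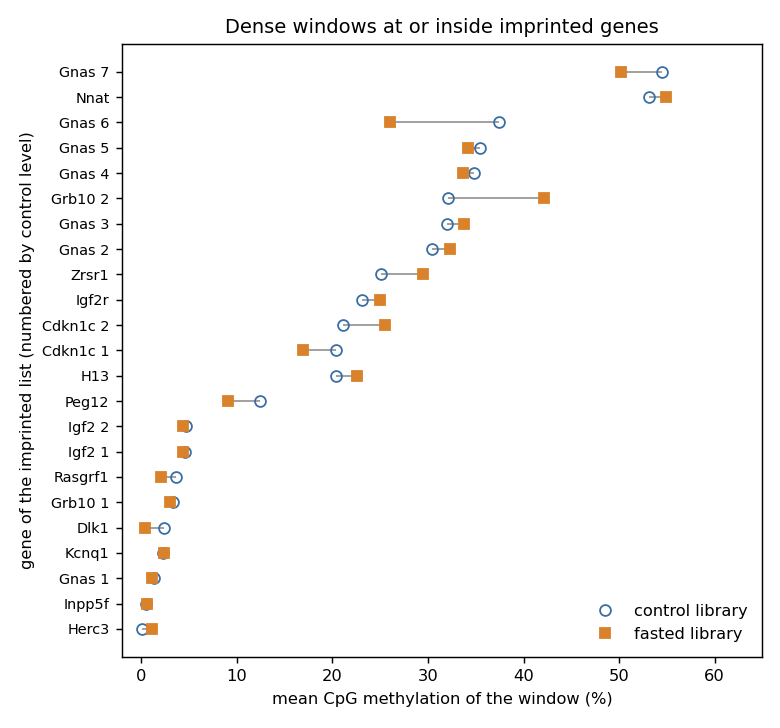
Mean methylation of 23 CpG dense windows at or inside genes of the imprinted list, ordered by the control level, with the control library as open circles and the fasted library as orange squares joined by a line. Numbers tell windows of 1 gene apart. The longest lines are Gnas 6 (37.4% to 26.0%) and Grb10 2 (32.1% to 42.1%).

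Genes of the fasting response had dense windows at their ends that were below 10% in both libraries, with Gpi1 as the exception. Their lists were read against the median of all dense windows, 0.762% in control liver and 0.828% in fasted liver, and 0.358% of dense windows called. The 6 windows of gluconeogenic genes had medians of 0.861% and 0.871%, and 1 was called, that of Gpi1. Foxo1, a transcription factor restrained by insulin, had the next largest difference of that list, at 0.407% and 0.996%. The 4 windows of fat oxidation and ketogenesis genes had medians of 0.638% and 0.703%, with Acot1, an acyl-CoA thioesterase, at 0.280% and 1.70%. The 7 windows of lipogenic and glycolytic genes had medians of 0.953% and 0.505%, with Acly, the ATP citrate lyase, at 0.468% and 1.63% and the fatty acid elongase Elovl5 at 1.38% and 0.420%. None of the windows of these last 2 lists was called.

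The other metabolic lists were as low. The 8 windows of cholesterol and bile acid genes had medians of 0.518% and 0.675%, with the cholesterol exporter Abca1 at 0.383% and 1.24%. The 19 windows of insulin and glucagon signalling had medians of 0.574% and 0.450%, with Foxo3 at 1.796% and 0.337% and Prkaca, the catalytic subunit of protein kinase A, at 0.797% and 0.218%. The 9 windows of clock genes had medians of 0.580% and 0.552%, with the clock factor Npas2 at 0.580% and 1.83%. The 13 windows of methylation and one-carbon genes had medians of 0.601% and 0.579%, with the demethylating dioxygenase Tet2 at 2.81% and 3.67% and the maintenance methyltransferase Dnmt1 at 0.707% and 1.52%. None of the windows of these 4 lists was called. All were below 10% in control liver, where 4 of 7789 dense windows and 0.308% of all windows tested were called.

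Developmental genes carried a little more methylation than housekeeping genes. The 17 windows of housekeeping genes had medians of 0.539% in control liver and 0.538% in fasted liver. The 68 windows of developmental transcription factors had medians of 2.65% and 2.43%, and the 12 of Hox genes 5.32% and 5.07%, all 12 below 10%, as were 96.1% of all dense windows. None of these was called, where 0.358% of all dense windows were. The largest differences were those of the T-box gene Tbx2, with a window at 9.16% and 4.68%, the homeobox gene Uncx at 5.0% and 8.25%, Hoxc13 at 5.91% and 4.0% and Hoxa11 at 4.26% and 6.15%. With a minimum of 20 reads the Hoxa11 window differed by 10.6 points and was called. Among housekeeping genes, a window at an end of Rpl19, a ribosomal protein gene, stood at 4.85% and 2.84%. The annotated start in that window is that of Cacnb1. Vcp, an ATPase of protein degradation, stood at 0.255% and 2.19%.

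Windows of cell type genes were low whatever the cell type, at most 11.4% in control liver, so these windows could not check the tissue label. The 8 windows of hepatocyte transcription factors had medians of 0.752% in control liver and 1.02% in fasted liver, with Onecut1 at 4.15% and 3.43% and Cebpa at 0.569% and 1.06%. The 4 windows of endothelial and stellate cell genes had medians of 1.86% and 1.82%, with desmin (Des) at 11.4% and 9.68% and Reln at 1.44% and 0.562%. The 2 windows of immune genes were Ikzf1 at 3.26% and 1.91% and Runx3 at 3.13% and 3.28%. Germline genes were the one list at a high level: its 3 windows had medians of 79.3% and 68.6%. These medians fell on different windows, Mael in control and Ddx4 in fasted liver, and the median difference was only -2.21 points. The choice left out windows at 80% or more in control liver, so this list holds none above that. Mael, a factor of piRNA silencing, stood at 79.3% and 77.1%, and Ddx4, at 79.3% and 68.6%, was called lower (-10.7 points, counting error 2.26, 29 of 42 cytosines lower). The Ddx4 call was lost with counts halved, with a minimum of 5 or of 20 reads and with strands merged.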

How the data were processed

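Per the submitters' processing notes, reads were handled with bcl2fastq 1.8.4 and Bismark 0.14.3 on mm10. Libraries were cut with TaqαI and MspI, per the labels' protocols. The sources used here give no trimming, duplicate handling or filter. The deposited files list CpG cytosines by strand with a text field of methylated and total read counts and a percent, and the authors' score, 1000 times the methylated fraction. The deposited read counts were used, so no normalization enters the levels.

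A window's level is the mean over its cytosines that both libraries read at least 10 times. Summed reads of every autosomal window of 1000 bp with at least 3 such cytosines went into Fisher's exact test (two-sided), adjusted by Benjamini-Hochberg over 124884 windows, and single cytosines likewise over 1603296. A window was called at an adjusted p under 0.05 and 10 points, a cytosine at 25 points. Counting errors, exact Clopper-Pearson intervals and p-values treat reads as independent and cover counting error only. Without molecular identifiers, PCR reads need not be separate molecules. Windows, gene lists and tests were chosen with earlier results of these data known. Named were the 10 largest called changes in each direction, the 5 windows with most listed cytosines, all windows at gene ends of the imprinted list, the 2 with the largest difference in each other list, the 3 called cytosines with the largest change each way, and windows at the thresholds. The other 9 called windows, the evenly intermediate windows, the runs and windows inside imprinted genes were named after their values were seen. A few windows that these rules name are not reported here.

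Genes and promoters came from RefSeq tables of GRCm38.p6. In promoters of the dense windows, all 194603 listed cytosines fell on a CG of the RefSeq sequence. On simulated reads for these 8101 windows, a change of 5 points was called in 0%, of 10 points in 58% and of 20 or 40 points in 100% of 50 windows each, and 0 of 7901 unchanged windows was called. The rule of 10 points largely set these shares. The simulated cytosines were drawn independently, without shared molecules, and adjusted over the 8101 windows only. The simulation thus checks the calculation and does not give a rate of false calls in the data. Python 3.11.15, numpy 2.4.6, scipy 1.17.1, pandas 2.3.3, numba 0.67.0 and matplotlib 3.10.9 were used. Samples were grouped by title. Alternatives changed the read minimum, weighting, strands, depth, difference, density minimum and window grid.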

Additional observations from a re-analysis of the deposited data

How the results depend on the processing

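No paired analysis was possible because there was 1 library in each group, and for the same reason no replicate could be left out. The mean difference over the dense windows was 0.0187 points with levels from summed reads, against -0.00287 points with mean cytosine levels. Its sign thus turned with the weighting, and it then exceeded the counting error of 0.00977. The number of called dense windows was 66 at a difference of at least 5 points, 4 at 20 points, 45 with at least 50 listed cytosines, 12 with at least 80, and 0 when a window's reads were divided by its number of cytosines. Called single cytosines numbered 25 at equal depth and 0 with read counts halved. With at least 80 listed cytosines there were 4827 windows, 4678 of them below 10% and 74 at 20 to 80%, and with at least 50 there were 239 at 20 to 80%. The 29 called windows were recomputed under up to 5 alternatives each. In 111 results the call was kept, in 27 it was lost and 2 turned, both in Myorg, at -0.0425 points with a minimum of 5 reads and -1.16 points with strands merged. The causes were not tested. With a minimum of 20 reads the windows of Abi3, Tbxa2r, Shisa8 and Fam110a gave no value, and Sfi1 gave none with the deepest cytosines left out, as too few of their cytosines remained. Uncalled windows came to be called in 3 results, Igf2r with a minimum of 5 reads and with strands merged and Hoxa11 with a minimum of 20.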

Other observations

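The X chromosome was left out of the windows above. By the same rule it held 92 dense windows, with a median of 0.609% in control and 0.695% in fasted liver, and 91 of them were below 10% in control liver. None differed by 10 points, and 91 differed by less than 5 points. Their differences lay between -7.45 and 3.57 points.

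By autosome, the mean difference over dense windows lay between -0.158 points on chromosome 10 and 0.225 points on chromosome 12, where the mean level was 2.56% in control and 2.78% in fasted liver.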
